A study of Homo sapiens with 4 samples.

Results

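The distal long arm of chromosome 19, at 19q13.4, carries a tandem cluster of Krüppel-associated box (KRAB) zinc finger genes. The cluster was chosen because one of its genes, ZNF616, was higher with CDCA8siRNA in both cell lines, so changes with CDCA8siRNA describe genes that were selected on them and are given without a test. Of 34 gene symbols named for the cluster, 32 were among the 18398 genes in the deposited tables, and ZNF761 and ZNF816 had no row. The genes were measured by RNA sequencing in Huh1 and Huh7, established human hepatocellular carcinoma (HCC) cell lines. Each line was transfected with a negative control siRNA (NCsiRNA), which has no endogenous target, or with an siRNA against CDCA8 (CDCA8siRNA), the variant named CDCA8-1siRNA in the study, at 15 nM. CDCA8, also called borealin, is a subunit of the chromosomal passenger complex of mitosis. The siRNA treatment of the sequenced cells lasted 48 h.

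There was 1 library for each combination of line and siRNA, 4 in all, so no value has a replicate error. Where a pair of values is given for a line, NCsiRNA comes first and CDCA8siRNA second. The values imply between 12197606 and 13384836 mapped reads per library. CDCA8 itself stood at 24.1 RPKM (reads per kilobase, corrected for how many reads each library had) with NCsiRNA and 5.86 with CDCA8siRNA in Huh1, and at 51.5 and 7.36 RPKM in Huh7. All 11 hepatocyte lineage markers examined, albumin (ALB) and keratin 8 (KRT8) among them, stood at 1 RPKM or more in every library. Of 9 measured markers of other cell types, 1 or 2 reached 1 RPKM in the Huh1 libraries, with CD68 the highest. In Huh7 5 or 6 did so, with COL1A1 the highest at 107 RPKM under NCsiRNA and 125 RPKM under CDCA8siRNA. The summed level of these markers was 24.3 and 18.4 RPKM in Huh1 and 156 and 215 RPKM in Huh7, and its part in the results was not tested.

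KRAB zinc finger proteins bind DNA through an array of C2H2 zinc fingers at the carboxyl end. Through the KRAB domain they recruit TRIM28 (KAP1), which brings the histone methyltransferase SETDB1 and heterochromatin proteins, and many of them silence transposable elements. Human chromosome 19 holds large clusters of such genes that arose by tandem duplication, so neighbours resemble each other in sequence. In the reading frames of the 32 measured genes a C2H2 pattern was found between 7 and 26 times, with a median of 13, and a KRAB A box pattern was found in 27. ZNF845 had the longest array with 26 fingers, followed by ZNF836 with 24, ZNF808 with 23 and ZNF616 with 21, while ZNF577 and ZNF701 had 7.

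The genes also resembled each other at their transcription start sites. RefSeq promoters (250 bases before to 50 after the annotated start, GRCh38.p14) were listed for 28 of the 34 genes. The promoter of ZNF616, the gene that chose the cluster, is shown up to 26 bases after its start, on the minus strand at chr19:52139913-52140188. The capitals mark CCGGAAG, the letters of an ETS family binding motif.
ZNF616 promoter: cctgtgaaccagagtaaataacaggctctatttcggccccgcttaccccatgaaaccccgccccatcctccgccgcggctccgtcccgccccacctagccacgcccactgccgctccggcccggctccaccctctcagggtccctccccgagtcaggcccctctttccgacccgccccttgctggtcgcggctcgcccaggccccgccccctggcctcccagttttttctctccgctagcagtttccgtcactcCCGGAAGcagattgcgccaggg

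Some genes had more than 1 listed promoter, and a gene was counted if any of its promoters held the letters. The ETS letters CCGGAAG were found on either strand in 19 of the 28 genes (67.9%), against 3321 of 27305 genes with a listed promoter (12.2%). In 16 of the 19 the match began within 20 bases after the annotated start, that is in the first exon. In 10 of these it began exactly 4 bases after it. ZNF528 and ZNF578 held 2 matches each, of which the one further downstream was used. The windows around the match were alike well beyond the 7 letters, as 6 of these 10 genes show. The last window, printed for comparison, is that of ZNF468, the most abundant gene of the cluster. It lies at the same distance from its start and does not hold the exact letters, with caggaag in the place of CCGGAAG.
ZNF616, chr19:52139913-52139949, minus strand: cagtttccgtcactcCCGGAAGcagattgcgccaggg
ZNF841, chr19:52095740-52095776, minus strand: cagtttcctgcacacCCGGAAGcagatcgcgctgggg
ZNF845, chr19:53333738-53333774, plus strand: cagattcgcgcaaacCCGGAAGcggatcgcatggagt
ZNF765, chr19:53395138-53395174, plus strand: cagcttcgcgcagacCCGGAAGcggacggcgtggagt
ZNF611, chr19:52735019-52735055, minus strand: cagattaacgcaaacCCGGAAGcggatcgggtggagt
ZNF83, chr19:52638330-52638366, minus strand: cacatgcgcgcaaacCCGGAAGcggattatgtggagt
ZNF468, chr19:52857594-52857630, minus strand: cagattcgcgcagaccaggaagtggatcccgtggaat

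The ETS letters were held by 20 of 27 KRAB zinc finger genes of another cluster, at 19p12 (74.1%). Among other genes with a ZNF symbol 133 of 350 held them (38%). The GC box letters GGGCGG, bound by SP1, occurred in 24 of the 28 genes at 19q13.4 (85.7%) and in 48.3% of all genes with a listed promoter. CCAAT, the letters bound by NF-Y, separated the clusters. They were in 8 of 28 genes at 19q13.4 (28.6%), in 27 of 27 at 19p12 and in 39.7% of all genes with a listed promoter. TTTGAA, the letters of the cell cycle genes homology region (CHR), were found in 10 of 28 (35.7%), in 1 of 27 at 19p12 and in 18.2% of all. They were counted anywhere in the promoter, and their distance to the start was not recorded. The cAMP response element TGACGTCA was in none of the 28 and in 2.25% of all, and TATAAA was in 1 of 28 (3.57%) and in 14% of all. None of the 6 letter strings contains another on either strand, the motifs were picked after the promoters had been looked at, and a match describes letters and not binding.

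**Figure D1:**
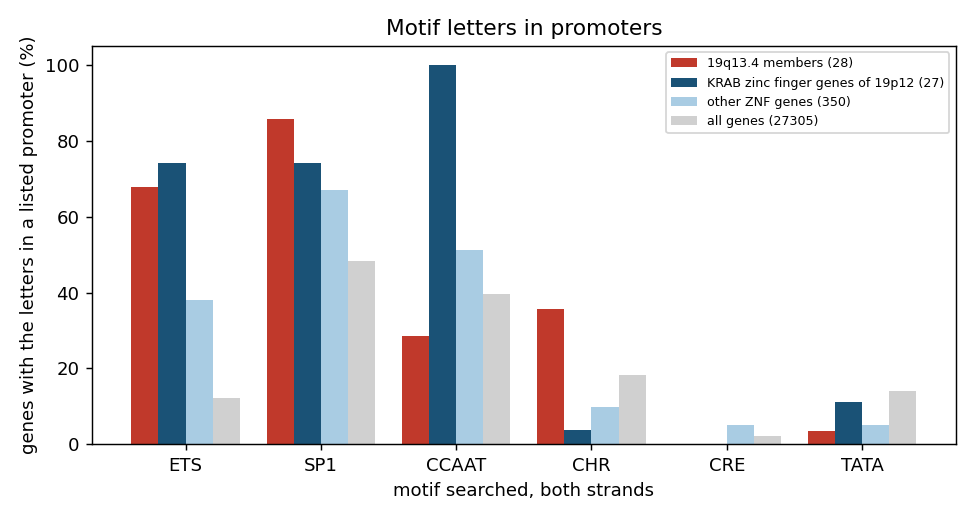
Share of genes (%) whose listed promoter holds each motif's letters on either strand, for the 19q13.4 genes, the 19p12 genes, other ZNF genes and all genes, with the number of genes in brackets. The ETS bar of the 19q13.4 genes reaches 67.9% against 12.2% for all genes, while their CCAAT bar, at 28.6%, is far below the 100% at 19p12.

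The cluster was expressed at low levels. The median over the 32 genes of the mean RPKM was 2.44, against 11.1 for all genes tested, and 18 genes reached 1 RPKM in all 4 libraries. In 6 genes the value stayed under 1 RPKM throughout. The sum over the 32 genes was 78.9 RPKM in Huh1 and 78.5 RPKM in Huh7 under NCsiRNA.

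ZNF468 had the highest mean, with 8.80 RPKM in Huh1 under NCsiRNA, 13.03 under CDCA8siRNA, and 6.63 and 16.02 in Huh7. ZNF28, its neighbour, had 4.90 and 7.43 RPKM in Huh1 and 7.02 and 11.9 in Huh7. In both genes each CDCA8siRNA library was above both NCsiRNA libraries. ZNF841 had 7.23 and 10.9 RPKM in Huh1 and 4.70 and 8.14 in Huh7. ZNF480 had 4.51 and 6.23 in Huh1 and 4.51 and 9.29 in Huh7, so that its NCsiRNA libraries were level. ZNF600 completed the 5 most abundant, with 6.05 and 7.06 RPKM in Huh1 and 4.50 and 5.59 in Huh7, and was higher in Huh1 under either siRNA.

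**Figure D2:**
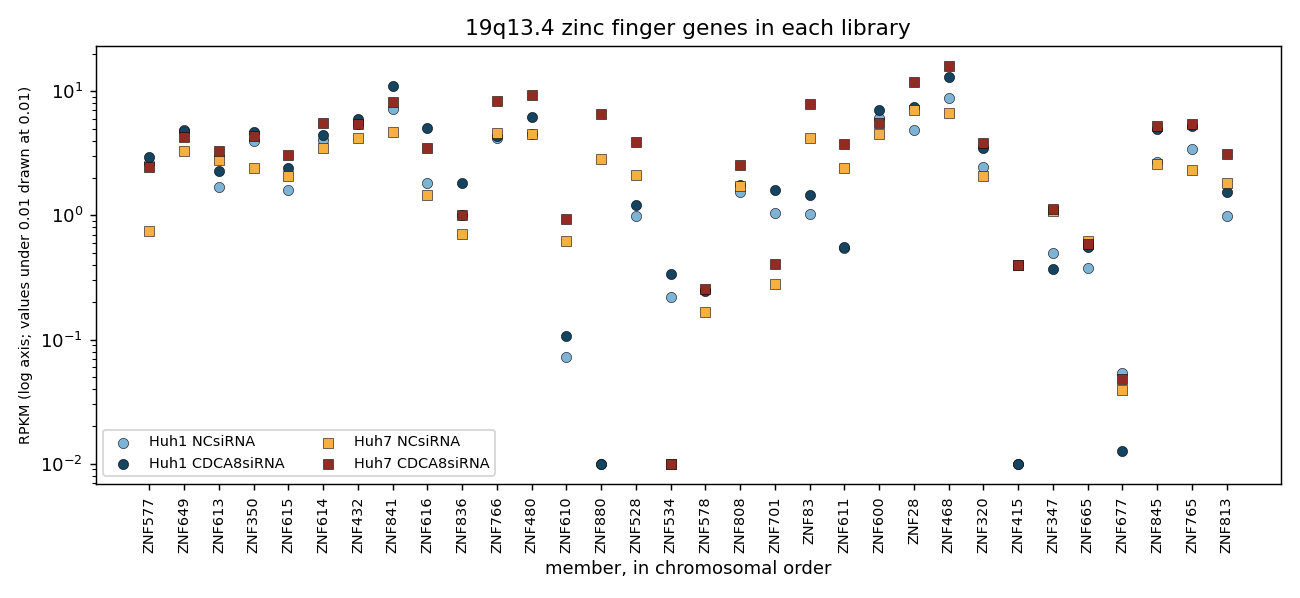
RPKM of the 32 measured genes in each of the 4 libraries, on a log axis, in chromosomal order from ZNF577 to ZNF813, with values under 0.01 drawn at 0.01. ZNF468 is highest, ZNF880 and ZNF415 lie at the bottom in Huh1, and ZNF534 lies at the bottom in Huh7.

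Silencing of CDCA8 was compared with the control in each line, the comparison for which the study was made. ZNF616, whose rise chose the cluster, had 1.84 RPKM with NCsiRNA and 5.07 RPKM with CDCA8siRNA in Huh1, a ratio of 2.76. In Huh7 it had 1.45 and 3.48 RPKM, a ratio of 2.39. The counting intervals of these ratios (95%, exact Clopper-Pearson) ran from 2.20 to 3.46 and from 1.82 to 3.16, behind which stood about 107, 290, 77 and 185 reads. Among all genes that passed the filter on low values it ranked 19th by rise in Huh1 and 179th in Huh7. These reads were estimated from transcript lengths, and the intervals cover counting error only.

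Most of the cluster lay on the same side. ZNF616, whose rise was fixed by the choice, is included in the counts, medians and sums here and below. In Huh1 24 of the 32 genes passed the filter (a mean of the libraries compared of at least 0.5 RPKM), and 23 of them were higher with CDCA8siRNA, where 55.3% of all tested genes were higher. In Huh7 27 passed and 26 were higher, where the share over all genes was 54.7%. Of 23 genes that passed in both lines 22 were higher in both (95.7%), against 39.1% of all genes. Measured as a difference in log2(RPKM + 0.1), the median change came to 0.46 in Huh1, with quartiles of 0.16 and 0.59, and 0.77 in Huh7, with quartiles of 0.49 and 0.95. The medians over all genes were 0.03 and 0.04. Summed over the cluster, Huh1 had 78.9 RPKM with NCsiRNA and 106.8 RPKM with CDCA8siRNA, 1.35 times as much, and Huh7 had 78.5 and 138.4 RPKM, 1.76 times as much.

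The 8 genes that did not pass in Huh1 were ZNF347, ZNF415, ZNF534, ZNF578, ZNF610, ZNF665, ZNF677 and ZNF880, and the 5 in Huh7 were ZNF415, ZNF534, ZNF578, ZNF677 and ZNF701.

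Single changes were mostly under 2-fold, with folds counted here on the log2(RPKM + 0.1) scale. In Huh1 only ZNF616 was at least 2-fold higher, where 1.06% of all genes were, and 7 genes were at least 1.5-fold higher, where 5.06% of all were. In Huh7 6 genes were at least 2-fold higher (ZNF577, ZNF468, ZNF616, ZNF765, ZNF880 and ZNF480), where 2.52% of all genes were, and 17 were at least 1.5-fold higher, where 9.01% of all were. No gene of the cluster was 2-fold lower in either line, where 0.541% of all genes were in Huh1 and 1.37% in Huh7. ZNF845 fell just short of 2-fold in Huh7 on the log2(RPKM + 0.1) scale, at 0.999, though its plain RPKM ratio was 2.04. With a pseudocount of 1 RPKM instead of 0.1, 1 gene in Huh7 stayed past 2-fold. In 20 of the 23 genes that passed in both lines the change was larger in Huh7 than in Huh1. This difference between lines was not tested, and the same count was not made over all genes. Changes over all genes were also wider in Huh7, with quartiles of -0.17 and 0.26, against -0.12 and 0.20 in Huh1.

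After ZNF616 the largest rises in Huh1 were those of ZNF845 and ZNF836. ZNF845 had 2.68 and 4.95 RPKM in Huh1, a ratio of 1.85, and 2.58 and 5.26 RPKM in Huh7, a ratio of 2.04, so the lines were close at both levels. ZNF836 had 1.01 and 1.82 RPKM in Huh1 and 0.702 and 1.01 in Huh7, and its Huh7 level under CDCA8siRNA was that of Huh1 under NCsiRNA. The counting interval of its Huh7 ratio, 0.882 to 2.50, included no change.

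In Huh7 the largest rise was that of ZNF577, the most proximal gene of the cluster, from 0.745 to 2.45 RPKM. Its ratio of 3.30 rested on about 28 and 93 reads and had a counting interval of 2.15 to 5.24. In Huh1, where it stood at 2.63 and 2.96 RPKM, the ratio was 1.13 with an interval of 0.862 to 1.48. The Huh7 level with CDCA8siRNA was thus still under both Huh1 levels. ZNF765 had 3.40 and 5.21 RPKM in Huh1 and 2.34 and 5.47 RPKM in Huh7, or ratios of 1.53 and 2.34.

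The smallest changes were near 0, among them those of ZNF611 in Huh1 and ZNF347 in Huh7, whose values are given below. ZNF649 was at 4.89 and 4.74 RPKM in Huh1 and at 3.33 and 4.27 in Huh7, and was the only gene of the 24 that was lower in Huh1. ZNF766 was nearly level in Huh1 at 4.18 and 4.37 RPKM but went from 4.58 to 8.36 in Huh7. ZNF613 lay further from 0, at 1.71 and 2.29 RPKM in Huh1 and 2.80 and 3.29 in Huh7, and was among the smallest changes only in Huh7. ZNF665 was the only gene of the 27 that was lower in Huh7, at 0.625 and 0.589 RPKM, and had 0.374 and 0.556 in Huh1. For ZNF649 in Huh1 and ZNF665 in Huh7 the counting intervals of the ratio, 0.796 to 1.18 and 0.547 to 1.58, included no change. A pair of genes of the cluster are named for what is known of them rather than for their values. ZNF350 (ZBRK1), a partner of BRCA1 in repression of GADD45A, stood at 3.96 and 4.66 RPKM in Huh1 and at 2.42 and 4.39 in Huh7. ZNF808, whose loss impairs development of the pancreas, stood at 1.56 and 1.75 RPKM in Huh1 and at 1.71 and 2.53 in Huh7.

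**Figure D3:**
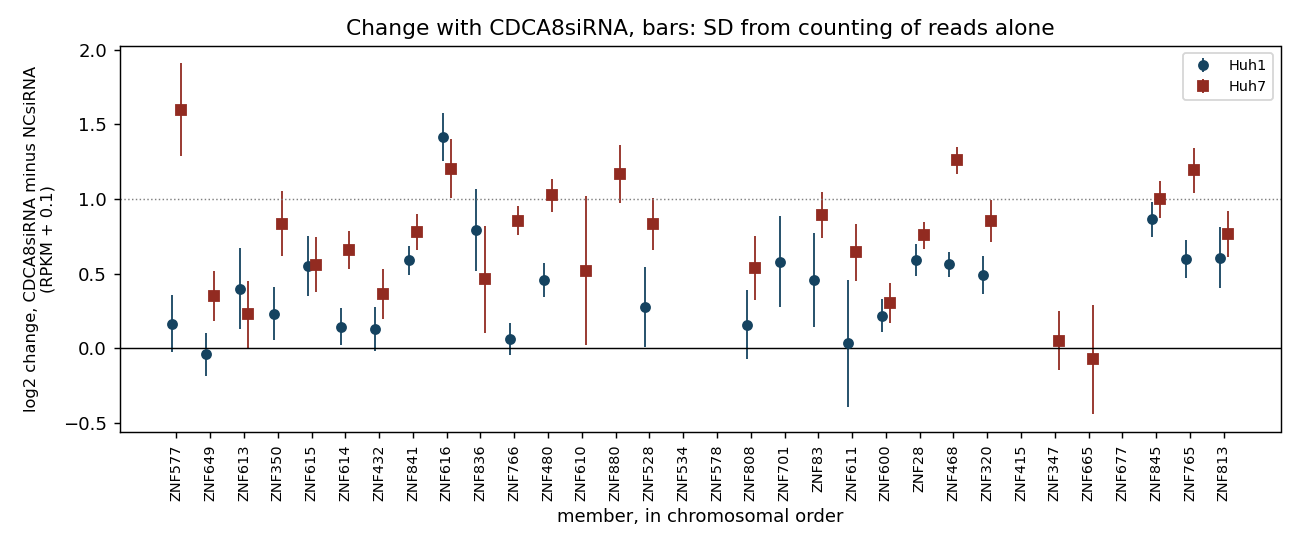
Change with CDCA8siRNA on the log2(RPKM + 0.1) scale for each gene that passed the filter in that line, in chromosomal order, with bars for 1 SD from the counting of reads alone and a dotted line at 2-fold. ZNF616 is the only gene past the dotted line in Huh1 and ZNF577 is the highest in Huh7, and nearly all points lie above 0.

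The change did not sit in 1 stretch of the cluster. From ZNF577 to ZNF766, 10 of 11 tested genes were higher in Huh1 with a median of 0.23, and 11 of 11 in Huh7 with a median of 0.66. From ZNF480 to ZNF600 all 7 tested genes were higher in Huh1 (median 0.28) and all 8 in Huh7 (median 0.74). From ZNF28 to ZNF813 the counts were 6 of 6 (median 0.59) and 7 of 8 (median 0.81). Genes whose promoter holds the ETS letters had medians of 0.49 in Huh1 (13 genes) and 0.84 in Huh7 (14 genes), and genes with a listed promoter without them had medians of 0.40 and 0.66 (7 genes in each line), a difference that was not tested.

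Stretches shared between transcripts of different genes limit what a short read can tell. Of the 32 genes, 12 shared at least 5% of their 50-base stretches with transcripts of other genes, and 6 shared none. ZNF320 shared 99.5%, nearly all of it with transcripts annotated to ZNF468, and ZNF808 shared 28.6%, most of it with ZNF701. In each pair the annotated spans overlap on the same strand, so the same bases annotated to both genes can count as shared. Such overlaps were not told apart from separate copies, and the values of ZNF320 and ZNF808 are uncertain. Of 13 genes that shared under 5% and passed in both lines, 12 were higher in both, against 39.1% of all genes. The split at 5% was chosen after seeing the data. ZNF616, whose rise was fixed by the choice, shared 0.8% and is among the 13. The part of shared stretches in the changes was not tested.

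The same description was made for lists outside the cluster. Of the KRAB zinc finger genes at 19p12, 27 of 27 tested were higher in Huh1 and 24 of 24 in Huh7, with medians of 0.75 and 0.72 and with 8 and 4 genes at least 2-fold higher. Of other genes with a ZNF symbol, 238 of 331 (71.9%) were higher in Huh1 and 263 of 352 (74.7%) in Huh7, with medians of 0.18 and 0.28. Both lines were higher in 23 of 23 genes at 19p12 and in 196 of 323 other ZNF genes (60.7%). These counts share their libraries with those of the cluster and carry no test, and whether any list stands apart from the others was not tested.

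**Figure D4:**
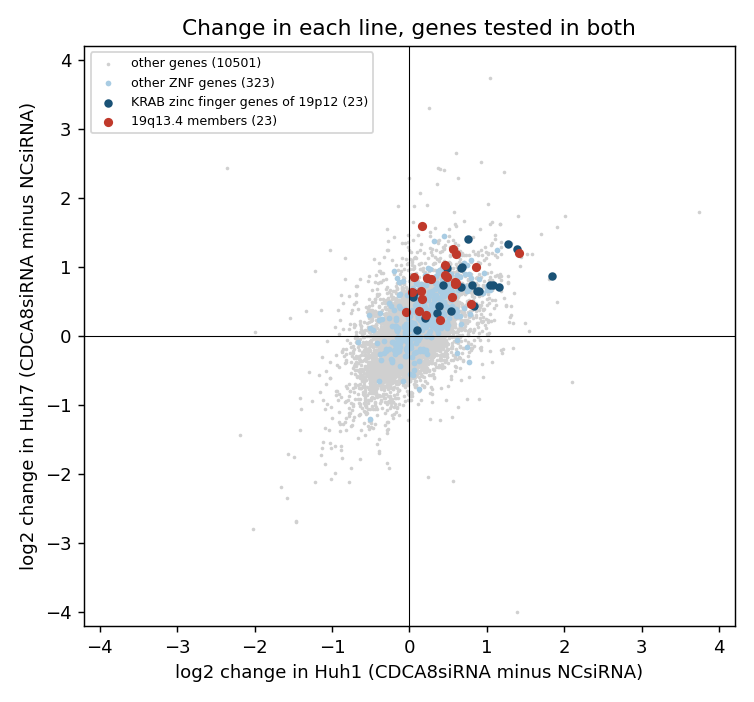
Change with CDCA8siRNA in Huh1 (x axis) and Huh7 (y axis), both as log2(RPKM + 0.1) differences, for genes that passed the filter in both lines. All but 1 of the 23 genes of 19q13.4 and all 23 of 19p12 lie in the upper right part, where 39.1% of all genes lie.

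Genes interspersed with or beside the cluster that are not among the 32 were described in the same way. Of 10 tested, 8 were higher in Huh1 and 7 in Huh7, with medians of 0.07 and 0.15. PPP2R1A, the scaffold subunit of protein phosphatase 2A whose gene lies within the cluster, had 81.7 and 91.8 RPKM in Huh1 and 84.8 and 94.4 in Huh7. The zinc finger genes among them, named after their values were seen, differed from one another. ZNF160 had 0.851 and 1.498 RPKM in Huh1 and 6.16 and 9.71 in Huh7. ZNF175 had 2.02 and 2.93 RPKM in Huh1 and 1.41 and 2.43 in Huh7. ZNF331, an imprinted gene at the distal end, stayed at 2.91 and 2.92 in Huh1 and 4.68 and 5.04 in Huh7.

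The difference between the lines was the comparison that did not choose the cluster. It was fitted with limma across all 12232 genes that passed the filter, with siRNA as a second term, and adjusted over all of them (Benjamini-Hochberg). With 1 library per condition the fit measures whether the lines differed alike under both siRNAs and not the spread between cultures. Of the 27 genes of the cluster tested, 13 had an adjusted p under 0.05 (48.1%), against 70.3% of all genes tested. Of these 9 were higher in Huh7 (ZNF813, ZNF766, ZNF880, ZNF28, ZNF83, ZNF613, ZNF611, ZNF528 and ZNF347) and 4 were lower in Huh7 (ZNF841, ZNF701, ZNF577 and ZNF600). ZNF880, ZNF347 and ZNF701 had entered the test only through the line in which they were higher, so a difference was built into their selection and their p-values are not given. Among the 23 genes that passed the filter in each line by itself, 10 were called (43.5%), 7 higher and 3 lower in Huh7, against 67.1% of all genes that passed in both. Out of all 27 genes the count fell to 6 with line as the only term, and in that fit it was 4 with the Huh1 NCsiRNA or the Huh1 CDCA8siRNA library left out and 6 with the Huh7 NCsiRNA or the Huh7 CDCA8siRNA library left out.

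ZNF880 was listed at 0 in Huh1 under NCsiRNA and at 0.00168 RPKM under CDCA8siRNA, less than 1 read, and at 2.86 and 6.56 RPKM in Huh7. It passed the filter through Huh7 alone, and no fold is given against values at 0. ZNF415 was likewise listed at 0 and 0.00167 RPKM in Huh1 and at 0.401 and 0.395 in Huh7. ZNF534 was the opposite, at 0.219 and 0.336 RPKM in Huh1 and listed at 0 in both Huh7 libraries. Neither passed the filter.

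ZNF611, a gene whose protein binds SVA elements, stood at 0.545 and 0.560 RPKM in Huh1 and at 2.39 and 3.79 in Huh7. Each Huh1 value of ZNF611 rested on about 23 reads, and 17.7% of its 50-base stretches were shared with transcripts of other genes. The Huh7 minus Huh1 difference was 2.25 on the log2(RPKM + 0.1) scale (SE 0.25, limma adjusted p = 0.000116), with an adjusted p between 6.5e-05 and 0.031 over the 12 alternatives. ZNF83 stood at 1.03 and 1.46 RPKM in Huh1 and at 4.195 and 7.87 in Huh7, with a difference of 2.14 (SE 0.19, limma adjusted p = 3.83e-05). For ZNF83 the adjusted p was 0.061 without the Huh1 NCsiRNA library. In both genes the lowest Huh7 library was above the highest Huh1 library.

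ZNF528 was also higher in Huh7, with 0.991 and 1.22 RPKM in Huh1 and 2.13 and 3.86 in Huh7, a log2 difference of 1.31 (SE 0.22, limma adjusted p = 0.00123). That p ranged from 0.000868 to 0.144 over the alternatives and lay above 0.05 when either Huh1 library was left out and without the Huh7 CDCA8siRNA library. ZNF347 stood at 0.494 and 0.373 RPKM in Huh1 and at 1.09 and 1.13 in Huh7, a difference of 1.19, and passed the filter through Huh7 alone. ZNF701 was the reverse, at 1.04 and 1.61 RPKM in Huh1 and 0.280 and 0.405 in Huh7, a difference of -1.67, and passed through Huh1 alone. For ZNF616 the difference was -0.43 (SE 0.18, limma adjusted p = 0.0651).

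**Figure D5:**
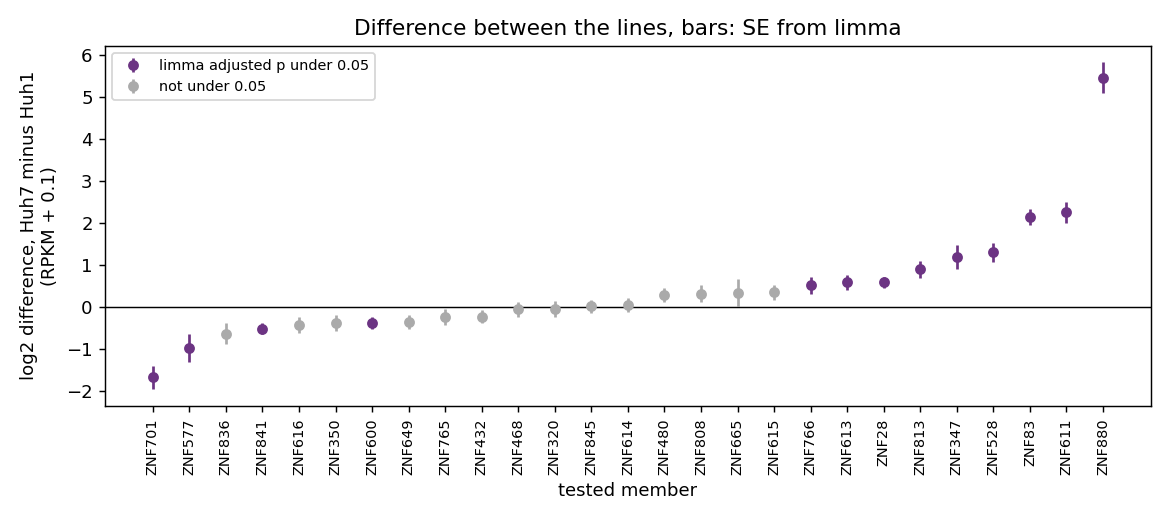
Huh7 minus Huh1 difference on the log2(RPKM + 0.1) scale for the 27 tested genes, ordered by size, with bars for the limma SE. The 13 genes with an adjusted p under 0.05 are drawn dark, from ZNF701 at -1.67 up to ZNF880, whose height depends on the pseudocount because Huh1 is at or near 0, and include ZNF701, ZNF347 and ZNF880, which passed the filter through 1 line alone.

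The corepressor machinery that KRAB domains recruit was looked at through 30 measured genes, with limma over both lines and cell line as a second term. The list was chosen with earlier results of these data known, so its p-values are descriptive. Of the 30 genes, 2 had an adjusted p under 0.05 with CDCA8siRNA, both higher, against 5.22% of all genes. Whether the list stands apart from all genes was not tested. CHD3, an ATPase of the NuRD complex that binds TRIM28, had 17.1 and 25.1 RPKM in Huh1 and 16.9 and 26.6 in Huh7 (log2 difference 0.60, SE 0.10, limma adjusted p = 0.0243). HDAC1, a histone deacetylase of the same complex, had 75.5 and 104 RPKM in Huh1 and 87.5 and 108 in Huh7 (log2 difference 0.38, SE 0.083, limma adjusted p = 0.0455). Neither was called when any 1 of the 4 libraries was left out, without the filter, without the mean-variance trend, or with siRNA as the only term. TRIM28 had 131 and 127 RPKM in Huh1 and 161 and 127 in Huh7 (limma adjusted p = 0.267), and SETDB1 had 15.1 and 15.6 RPKM in Huh1 and 12.7 and 13.5 in Huh7 (limma adjusted p = 0.744). A p above the threshold here does not show that a level was unchanged.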

How the data were processed

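RNA sequencing of 4 total RNA samples, 1 per combination of cell line and siRNA, was analysed from the tables as deposited. The authors gave 1 RPKM value per gene (reads per kilobase, corrected for library size) for each library. The submitters' processing notes name CASAVA 1.8.2, TopHat2 2.0.9 and the hg19 build. The counter, annotation and filters are not given in the sources used here, nor is use of strand, so reads of overlapping genes on opposite strands cannot be told apart.

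Members were matched by symbol. The members and all gene lists were chosen with earlier results of these data known. Changes were computed on log2(RPKM + 0.1), which understates folds of low genes, over genes with a mean of the compared libraries of at least 0.5 RPKM, and no test was made between siRNAs for the cluster. A pseudocount of 0.1 was used because these genes are low. Line and corepressor contrasts were fitted with limma 3.58.1 in R 4.3.3 (lmFit, eBayes with trend, Benjamini-Hochberg), with 1 residual and 6.39 prior degrees of freedom. Only the line fit was tried on simulated data, in which most genes were unchanged, unlike the share called between the lines here. Tables were made with Python 3.11.15, pandas 2.3.3, numpy 2.4.6 and scipy 1.17.1.

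The depth was inferred from the value of 1 read, using transcript lengths of GENCODE v29 (28 members matched by RefSeq identifier, 4 by symbol). No member came out at whole reads, within 0.05 of a read, in all 4 libraries, so reads and counting intervals are approximate. Finger and KRAB patterns were searched in the longest reading frame. Promoters came from RefSeq on GRCh38.p14, and no hg19 coordinates were used. A comparison of reference proteins was not made, as none were used here.

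Values are printed for ZNF616, the 5 members with the highest mean, the 6 with the largest difference between lines, and the 3 largest rises and 3 smallest or negative changes per line. From other lists PPP2R1A, TRIM28, SETDB1 and called corepressor genes are named by rule. Outside these rules, ZNF765, ZNF415, ZNF534 and the neighbours ZNF160, ZNF175 and ZNF331 were named after their values were seen, and ZNF350 and ZNF808 for their known roles. Alternatives changed the pseudocount, the filter, the scaling, the fold threshold, the model terms, the trend or left out 1 library.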

Additional observations from a re-analysis of the deposited data

Results flagged for a closer look

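ZNF649 was the 1 gene of the 23 that passed in both lines whose change had opposite signs. On the log2(RPKM + 0.1) scale it was -0.0413 in Huh1 and 0.35 in Huh7. The difference between the lines was not tested, since there was 1 library per condition.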

How the results depend on the processing

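Each condition has 1 library and the labels number no replicates, so no replicate block could be fitted, while the limma fits compared siRNAs within lines through the cell line term. Of the genes tested in both lines, with ZNF616 included, 22 of 23 were higher with CDCA8siRNA. The count ran from 20 to 25 under other pseudocounts, filters and scalings, which also changed how many were tested. Among genes that share under 5% of their 50-base stretches, an alternative chosen after seeing the data, it was 12 of 13. At a threshold of 1.5-fold in place of 2-fold, 7 genes in place of 1 were past it in Huh1 and 17 in place of 6 in Huh7. With a pseudocount of 1 RPKM 1 gene was past 2-fold in Huh7. The 13 genes called between the lines became 10 among genes that passed the filter in both lines, an alternative chosen after seeing the data, 6 with line as the only term and 4 to 6 when 1 library was left out. The 2 corepressor calls became 4 after quantile normalization, and 0 without the filter, 0 without the trend, 0 with siRNA as the only term and 0 to 0 when 1 library was left out. The median difference between the lines over the cluster, 0.05 on the log2 scale, was -0.20 after quantile normalization and 0.30 in the CDCA8siRNA libraries alone. Under no alternative did a called difference change sign. The lone library of a line left by leaving 1 out is assumed to vary like the others. Depth limits the low genes most, and about 9 reads lay behind ZNF701 in Huh7 under NCsiRNA.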
